A study of Mus musculus with 24 samples.

Results

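The 10 genes described here encode chaperones and co-chaperones of the endoplasmic reticulum (ER) lumen. They are Hspa5, Hyou1, Dnajb9, Dnajb11, Dnajc3, Sdf2l1, Hsp90b1, Calr, Creld2 and Manf. They were chosen by name and not by a cut on their values, but with earlier results of these data known. All 10 were found among the 38887 genes of the deposited count table. All 10 also passed the filter on low counts, with single-library counts from 220 (Dnajb9) to 84685 (Hspa5).

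The study sequenced mRNA from mouse dendritic cells (DCs), the immune cells that take up and present antigen, grown here from bone marrow. The 6 groups of 4 samples each, 24 in all, were cells labelled knockout (KO) for IRE1α with zymosan, wild type (WT) cells with zymosan, labelled KO cells with LPS, WT cells with LPS, untreated labelled KO cells and untreated WT cells. Zymosan is a particle made from yeast cell walls, and LPS is lipopolysaccharide, an outer membrane component of Gram-negative bacteria. The labels give no allele, Cre driver, strain, age, dose or duration, and they do not say whether replicates were different mice or cultures, so each p-value measures the spread between samples, part of which may be technical.

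Proteins bound for the cell surface or for secretion fold in the ER with the help of these chaperones. When unfolded proteins build up, the sensors IRE1α, ATF6 and PERK start the unfolded protein response, in which IRE1α splices Xbp1 mRNA so that it encodes the transcription factor XBP1s. XBP1s and ATF6 act on ER chaperone promoters, and in DCs the IRE1α pathway is known for being active at rest and for its part in survival and antigen presentation.

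Ern1, the gene of IRE1α, was not lower in the samples labelled KO, and in each condition every labelled KO sample lay above every WT sample. It averaged 37.4 CPM in labelled KO and 30.2 CPM in WT cells with zymosan, 39.3 CPM in labelled KO and 28.5 CPM in WT cells with LPS, and 51.4 CPM in labelled KO and 41.6 CPM in WT untreated cells. CPM is a count relative to the size of its library, here with TMM (trimmed mean of M values) factors. Counts over a whole gene include any exons that a conditional allele keeps, so they check nothing about the deletion, and the samples are called labelled KO throughout. Library totals ranged from 32223256 to 46927434 counts. Within groups, replicates 1 and 2 resembled each other, as did 3 and 4, more than other pairs did: the chi-square per gene, over genes with a summed count of at least 50, was 1.96 to 9.07 in these 12 pairs and 8.13 to 26.1 in the other 24. Each test was therefore also run on the summed counts of these pairs, with 2 sums per group.

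DC markers were present: Itgax (CD11c) averaged 1051 to 1309 CPM over the 6 groups and H2-Aa, an MHC class II chain, 939 to 1762 CPM, while Flt3 averaged 0.931 to 2.34 CPM and Cd209a 0.00604 to 0.288 CPM. The list of 12 DC genes summed to 7362 to 7891 CPM in labelled KO and 6237 to 6495 CPM in WT cells with zymosan, 7115 to 7525 CPM in labelled KO and 6515 to 7097 CPM in WT cells with LPS, and 6235 to 6494 CPM in labelled KO and 5148 to 5355 CPM in WT untreated cells. It was thus higher in labelled KO cells without overlap, with 6 of 11 genes called higher in each condition and 3, 2 and 1 lower. A list of 9 eosinophil genes summed to 47.6 to 62.3 CPM in the labelled KO samples and 835 to 1271 CPM in the WT samples. Of the 8 tested, 7 were lower in labelled KO untreated cells, 7 with zymosan and 8 with LPS. A list of 10 B and plasma cell genes was also higher without overlap, with 1 of 8 tested called higher each time and 1 lower with LPS. It summed to 430 to 455 CPM in labelled KO and 357 to 417 CPM in WT cells with zymosan. With LPS it was 394 to 423 and 355 to 377 CPM, and in untreated cells 353 to 355 and 211 to 276 CPM. Plasmacytoid DC genes summed lower with zymosan, at 559 to 624 and 685 to 739 CPM. These gaps lie along the genotype comparisons below, and their part in the chaperone differences was not tested. These are bulk libraries, in which fewer cells of a type and less RNA per cell cannot be told apart.

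The promoters of the members were read first, because the ER stress response element (ERSE) that ATF6 and XBP1s recognise is defined by its letters. RefSeq promoter windows on GRCm38.p6, 250 bases before to 50 after the annotated start, were available for 8 of the 10 genes, all but Hyou1 and Manf. The ERSE was searched on both strands as CCAAT, 9 bases of any kind, then CCACG. It occurred in 5 of the 8 windows, against 37 of 27025 genes (0.137%) in the whole table. The element was searched because it is already known for ER chaperone promoters, so these counts are a description and no test of enrichment. Below, each element reads along the strand that holds it, with the 5 fixed letters at either end in capitals.
Hspa5 (chr2:34772025-34772043, 65 bases before the start): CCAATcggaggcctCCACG
Hsp90b1 (chr10:86705638-86705656, 212 bases before): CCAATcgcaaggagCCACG
Hsp90b1 (chr10:86705533-86705551, 107 bases before, opposite strand to the gene): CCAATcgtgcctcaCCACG
Creld2 (chr15:88819520-88819538, 126 bases before, opposite strand): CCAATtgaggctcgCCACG
Calr (chr8:84847075-84847093, 162 bases before, opposite strand): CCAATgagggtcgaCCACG
Dnajc3 (chr14:118937827-118937845, 105 bases before): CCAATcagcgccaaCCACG

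Dnajb11 held the related ERSE-II (ATTGG, 1 base of any kind, then CCACG) as ATTGGcCCACG at chr16:22857852-22857862, 7 bases after its start, a motif found in 0.0444% of genes. The shorter CCACG, which forms the end of both elements, was in all 8 windows and in 35.5% of genes. CACGTG was in 2 windows, Calr and Dnajb9, against 8.09% of genes, and at Dnajb9 it overlaps a CCACG. TGACGTGG, which contains CCACG on its other strand, was in none of the 8 and in 0.714% of genes. These matches are descriptions of letters, not measured binding sites, and a missing match says only that the letters are not in the window.

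The 250 bases before the start of 3 members are shown because they had different outcomes between the genotypes. Capitals mark the ERSE and every CCACG on either strand. In the GENCODE annotation Hspa5 and Dnajb9 begin upstream of the RefSeq start, so part of the first window and all of the last lie within the annotated gene.
Hspa5 (chr2:34771840-34772089, plus strand), with an ERSE and a call between genotypes with LPS but not in the other conditions: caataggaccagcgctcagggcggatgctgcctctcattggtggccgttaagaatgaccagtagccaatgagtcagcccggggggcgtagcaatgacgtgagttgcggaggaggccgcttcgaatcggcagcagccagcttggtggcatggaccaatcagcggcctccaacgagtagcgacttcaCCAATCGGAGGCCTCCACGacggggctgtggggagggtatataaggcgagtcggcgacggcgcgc
Creld2 (chr15:88819396-88819645, plus strand), with an ERSE and a gap in every condition: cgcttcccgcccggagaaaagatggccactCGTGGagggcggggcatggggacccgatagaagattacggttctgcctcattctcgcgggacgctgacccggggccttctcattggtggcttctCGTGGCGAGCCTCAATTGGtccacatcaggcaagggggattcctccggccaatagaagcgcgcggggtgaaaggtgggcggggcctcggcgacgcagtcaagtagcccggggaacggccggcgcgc
Dnajb9 (chr12:44210069-44210318, minus strand), with no ERSE and the widest gap: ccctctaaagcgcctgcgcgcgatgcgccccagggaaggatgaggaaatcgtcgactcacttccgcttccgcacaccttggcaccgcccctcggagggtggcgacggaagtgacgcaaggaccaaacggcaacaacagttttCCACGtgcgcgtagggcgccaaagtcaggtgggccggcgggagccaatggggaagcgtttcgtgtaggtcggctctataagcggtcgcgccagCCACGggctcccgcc

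Levels can be compared between genes only per length, here CPM per kilobase of merged GENCODE exons, which understates genes with many long isoforms. On this scale Hspa5, Hsp90b1 and Calr stood far above the other 7 in every group: their group means were 217 to 488 CPM per kilobase, and those of the other 7 were 2.57 to 62.2. Dnajb9 had the lowest mean of the 10 in every group, 2.57 to 14.4 CPM per kilobase. Between the highest and the lowest of the 6 group means, the CPM level spanned 5.59-fold for Dnajb9, 3.03-fold for Hyou1, 2.77-fold for Creld2 and 2.67-fold for Manf. It spanned 1.22-fold for Hsp90b1 and 1.35-fold for Calr.

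**Figure D1:**
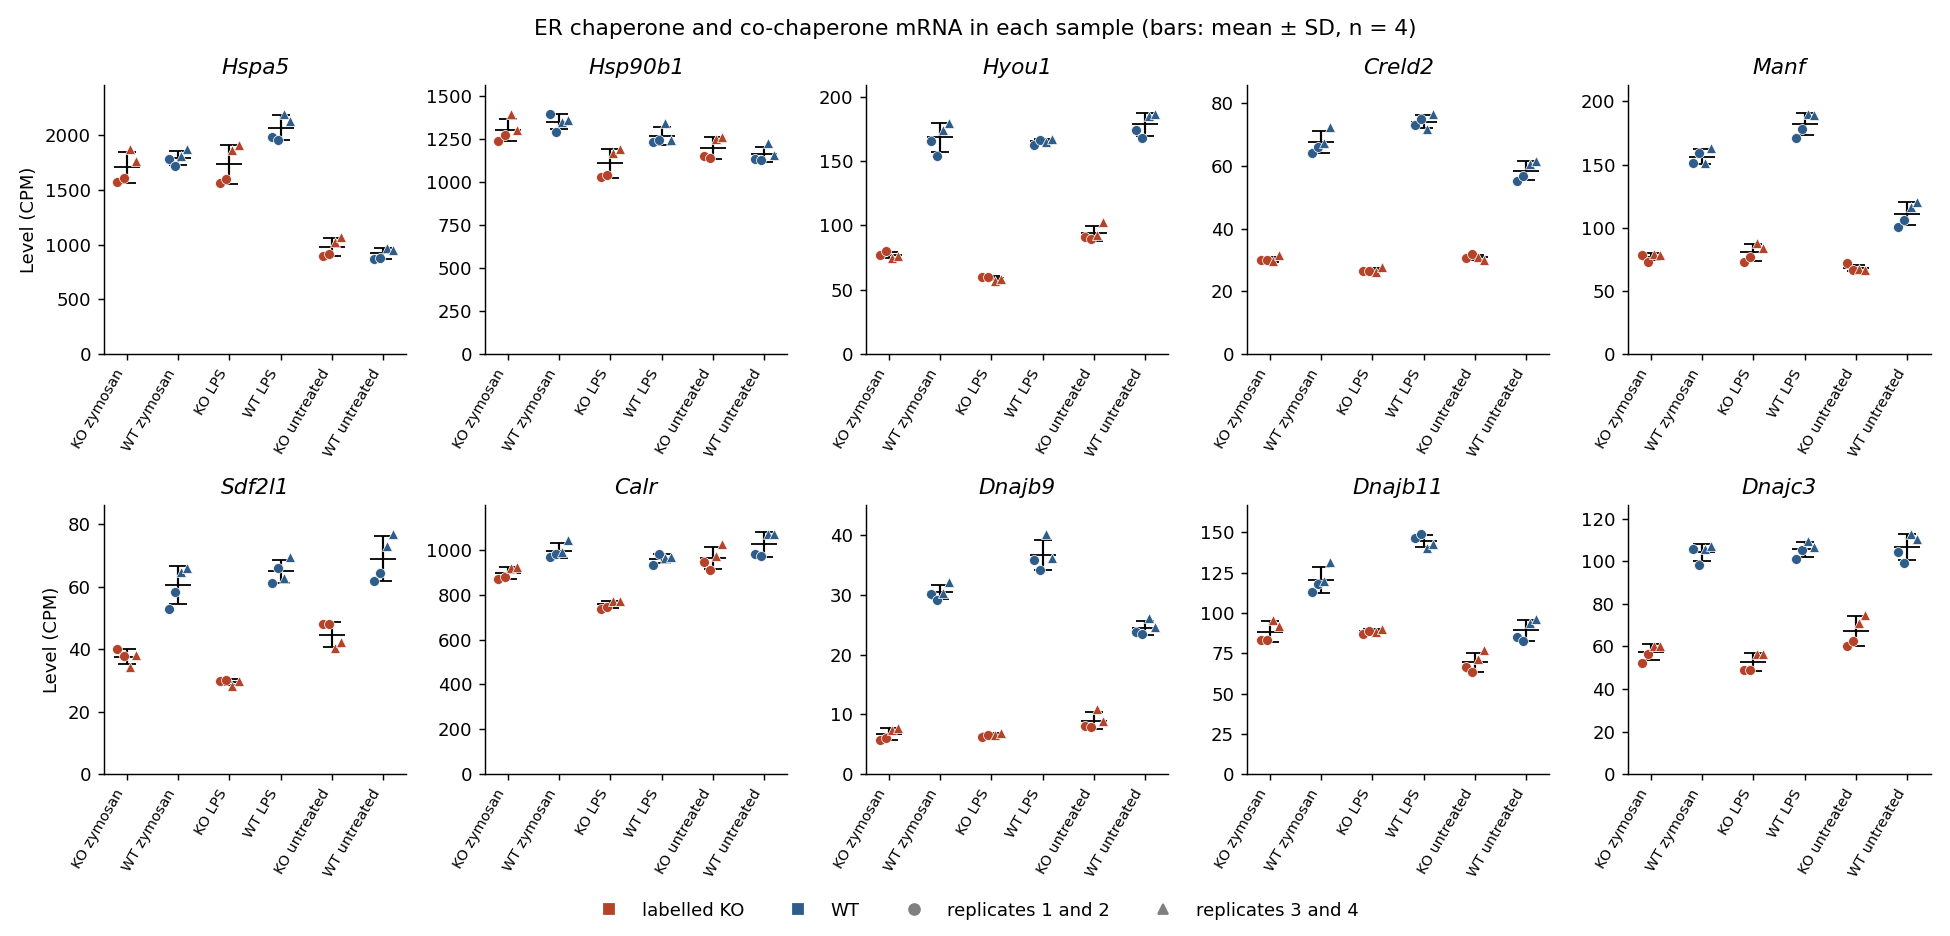
Level of each of the 10 genes in CPM (vertical axes, linear from 0) in the 24 samples, by group; points are samples, shaped by replicate pair, and bars are mean ± SD of 4 samples. Dnajb9, Hyou1 and Creld2 fall into a labelled KO and a WT band in every condition, while Hspa5 falls into a stimulated band at 1561 to 2192 CPM and an untreated band at 872 to 1064 CPM.

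Labelled KO cells were compared with WT cells in each condition to ask which chaperone mRNAs differ when IRE1α is targeted. Most did: the labelled KO level was lower for 8 of 10 genes with zymosan, for 10 of 10 with LPS and for 7 of 10 in untreated cells. By edgeR over all samples 0 were higher in any condition, also at an unadjusted p under 0.05 and by DESeq2. In 2 other settings this did not hold in untreated cells at an unadjusted p under 0.05. By edgeR 9 members were under it with replicate number as a block and within replicates 3 and 4 alone (24.4% and 21.2% of all genes). Only 8 of the 10 values were below 0 there, so the 9 include a higher one. Among all 14188 genes tested, 11.4% were lower and 10.6% higher with zymosan, 18.2% lower and 15.6% higher with LPS, and 5.64% lower and 4.31% higher in untreated cells. In either direction the shares were 22.1% with zymosan, 33.9% with LPS and 9.95% in untreated cells. A call is an edgeR quasi-likelihood test with a Benjamini-Hochberg adjusted p under 0.05 over all genes. The median log2 difference over the 10 genes, labelled KO over WT, was -0.77 with zymosan, -1.07 with LPS and -0.65 in untreated cells, and between -0.0040 and 0.0075 over all genes. The ranges of the 4 labelled KO and 4 WT samples did not overlap for 8, 10 and 7 members. The share of all genes without overlap was not counted, so these numbers only describe the members' samples. The gap was wide for the J-domain protein Dnajb9, for Hyou1 and for Creld2, and narrow or absent for the 3 abundant chaperones.

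**Figure D2:**
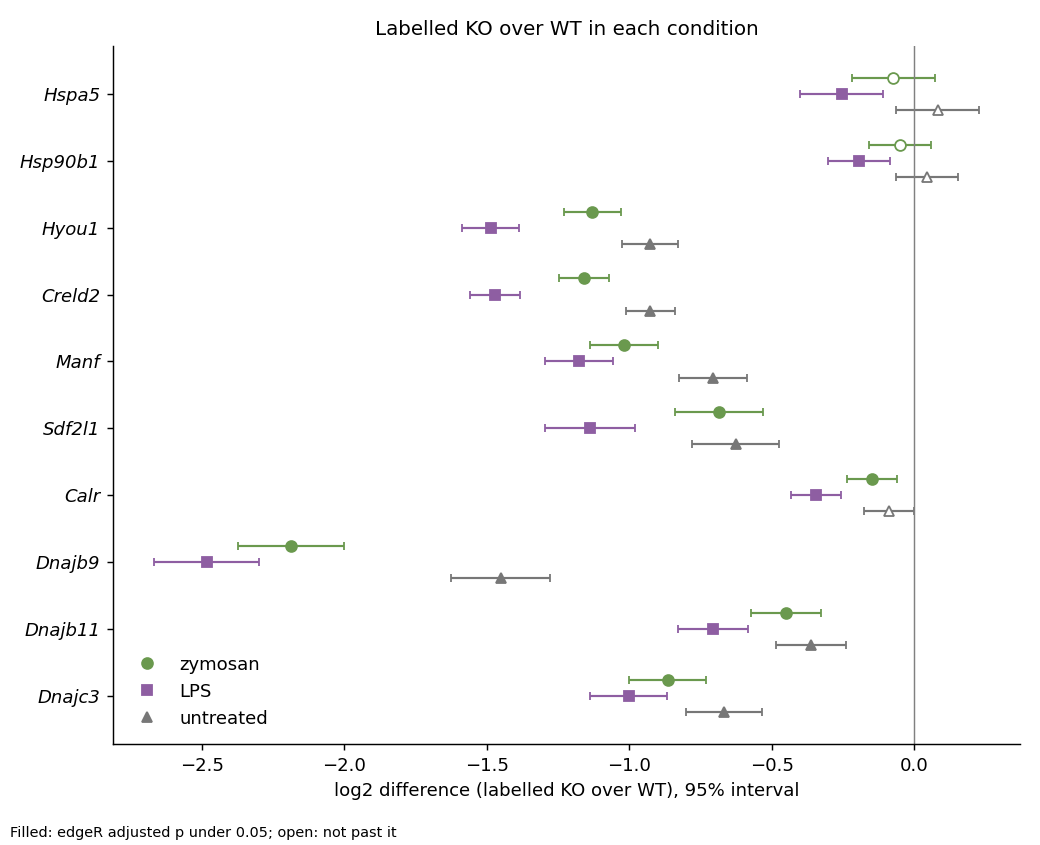
log2 difference, labelled KO over WT, of each gene (rows) with zymosan, with LPS and in untreated cells; bars are 95% intervals, filled symbols passed an edgeR adjusted p under 0.05 and open ones did not. Every symbol for Hyou1, Creld2, Manf, Sdf2l1, Dnajb9, Dnajb11 and Dnajc3 is left of 0, and for these 7 the LPS symbol is the leftmost.

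Hspa5 encodes BiP, the ER HSP70 that binds unfolded chains and also the lumenal side of the stress sensors. Its level was 1569, 1608, 1875 and 1766 CPM in labelled KO cells and 1778, 1713, 1809 and 1868 CPM in WT cells with zymosan. With LPS it was 1561, 1594, 1864 and 1904 CPM in labelled KO cells and 1981, 1953, 2192 and 2131 CPM in WT cells. In untreated cells it was 894, 913, 1023 and 1064 CPM in labelled KO and 872, 879, 972 and 953 CPM in WT. The genotypes overlapped with zymosan and without stimulus, and with LPS every labelled KO sample lay below every WT sample. With LPS the log2 difference was -0.25, with an SE of 0.07 over 4 samples in each group (edgeR adjusted p = 0.0069), and ± beside later log2 values is the SE. It did not pass with zymosan (-0.07, 95% interval -0.22 to 0.07, edgeR adjusted p = 0.512) or in untreated cells (0.08, -0.06 to 0.23, edgeR adjusted p = 0.572). Within replicates 1 and 2 alone the zymosan difference passed (-0.14, edgeR adjusted p = 0.00447), and with summed replicate pairs the LPS call ended (edgeR adjusted p = 0.157).

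Hyou1, which encodes the HSP110-type nucleotide exchange factor that lets BiP release its clients, separated the genotypes in every condition. Its level was 76.9, 80.0, 74.3 and 76.5 CPM in labelled KO cells and 166, 154, 174 and 179 CPM in WT cells with zymosan. With LPS it was 60.2, 60.002, 57.1 and 58.3 CPM in labelled KO cells and 162, 167, 164 and 167 CPM in WT cells. In untreated cells it was 91.3, 89.3, 92.1 and 103 CPM in labelled KO and 174, 168, 185 and 187 CPM in WT. No labelled KO sample reached the lowest WT sample, and the 3 labelled KO groups did not overlap each other, while the WT zymosan samples overlapped both other WT groups. Hyou1 was 2.19-fold lower with zymosan, 2.80-fold lower with LPS and 1.90-fold lower in untreated cells (log2 -1.13, -1.49 and -0.93, SE 0.05 each, edgeR adjusted p = 5.16e-15, 1.64e-17 and 2.72e-13).

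Dnajb9 (ERdj4), a J-domain protein that brings misfolded clients to BiP and helps their degradation, had the widest gap of the 10 in each condition. With zymosan its level was 5.73, 6.06, 7.45 and 7.70 CPM in labelled KO cells and 30.3, 29.2, 30.4 and 32.2 CPM in WT cells. With LPS it was 6.24, 6.49, 6.58 and 6.92 CPM in labelled KO cells and 35.9, 34.2, 40.3 and 36.3 CPM in WT cells. In untreated cells it was 8.11, 7.90, 10.96 and 8.96 CPM in labelled KO and 23.8, 23.5, 26.2 and 24.7 CPM in WT. All 12 labelled KO samples lay below all 12 WT samples. The level was 4.55-fold lower with zymosan, 5.59-fold lower with LPS and 2.73-fold lower in untreated cells (log2 -2.19 ± 0.09, -2.48 ± 0.09 and -1.45 ± 0.08, edgeR adjusted p = 2.73e-15, 1.11e-16 and 3.23e-12).

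Dnajb11 (ERdj3), another J-domain partner of BiP that binds nascent chains, differed less. Its level with LPS was 87.3, 88.9, 88.4 and 90.2 CPM in labelled KO cells and 147, 149, 140.4 and 143 CPM in WT cells. The groups did not overlap with LPS, nor with zymosan (83.0 to 95.5 CPM in labelled KO, 113 to 132 CPM in WT) or in untreated cells (63.3 to 76.9 CPM in labelled KO, 82.7 to 96.1 CPM in WT). The log2 difference was -0.45 with zymosan, -0.71 with LPS and -0.36 in untreated cells (SE 0.06 each, edgeR adjusted p = 4.09e-06, 1.97e-09 and 0.000119). The untreated call ended with summed replicate pairs (edgeR adjusted p = 0.0598). Sdf2l1, a small partner of Dnajb11 that keeps clients from aggregating, was 29.7, 30.1, 28.1 and 29.9 CPM in labelled KO and 61.2, 65.8, 62.8 and 69.6 CPM in WT cells with LPS. Its groups were apart in every condition too, at log2 -0.68 ± 0.08 with zymosan, -1.14 ± 0.08 with LPS and -0.63 ± 0.07 in untreated cells (edgeR adjusted p = 2.36e-07, 2.3e-11 and 8.85e-07). Dnajc3 (P58IPK), the J-domain protein also known as an inhibitor of the kinase PERK, was 49.0, 49.2, 56.6 and 56.4 CPM in labelled KO and 101, 105, 109.5 and 107 CPM in WT cells with LPS. It was 1.82-fold lower with zymosan, 2.00-fold lower with LPS and 1.59-fold lower in untreated cells, with no overlap (edgeR adjusted p = 3.4e-10, 1.59e-11 and 3.82e-08).

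Hsp90b1 (GRP94), the ER HSP90 needed to fold integrins and most Toll-like receptors, overlapped between genotypes with zymosan and in untreated cells. With LPS it was 1030, 1040, 1171 and 1194 CPM in labelled KO cells and 1234, 1247, 1344 and 1243 CPM in WT cells, so that every labelled KO sample was lower. The log2 difference with LPS was -0.19 ± 0.05 (edgeR adjusted p = 0.00633), and the call ended with summed replicate pairs (edgeR adjusted p = 0.149) and within replicates 3 and 4 (0.0552). With zymosan it was -0.05 (95% interval -0.16 to 0.06, edgeR adjusted p = 0.544) and in untreated cells 0.05 (-0.06 to 0.16, edgeR adjusted p = 0.693). Its exons share 415 bases with a pseudogene on the opposite strand, and the strandedness of the counting is not given in the sources used here.

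Calr, the lectin chaperone calreticulin, which binds calcium and takes part in MHC class I assembly, was 738, 747, 771 and 771 CPM in labelled KO and 934, 979, 963 and 966 CPM in WT cells with LPS. With zymosan it was 871 to 922 CPM in labelled KO and 967 to 1043 CPM in WT cells, again with no overlap, and the untreated groups overlapped. The log2 difference was -0.15 ± 0.04 with zymosan and -0.34 ± 0.04 with LPS (edgeR adjusted p = 0.0136 and 1.13e-06). In untreated cells it was -0.09 (95% interval -0.18 to 0.00085, edgeR adjusted p = 0.246). The zymosan call was not stable: its edgeR adjusted p was 0.0519 without labelled KO zymosan replicate 1, 0.0579 without WT zymosan replicate 4, 0.0514 with no filter on low counts and 0.269 with summed pairs.

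The last 2 members are proteins that are retained in the ER or secreted under stress. Creld2, a disulfide isomerase-like protein, was 26.4, 26.6, 26.3 and 27.6 CPM in labelled KO and 73.1, 74.9, 71.8 and 76.6 CPM in WT cells with LPS. With zymosan it was 29.9, 30.0, 29.5 and 31.4 CPM in labelled KO and 64.1, 66.0, 67.4 and 72.3 CPM in WT cells. In untreated cells it was 30.6, 31.8, 30.9 and 29.9 CPM in labelled KO and 55.2, 56.9, 60.5 and 61.4 CPM in WT. The labelled KO samples of all 3 conditions lay within 26.3 to 31.8 CPM, and the lowest WT sample was at 55.2 CPM. By p-value Creld2 ranked 6 with zymosan, 5 with LPS and 9 in untreated cells among the 14188 genes (log2 -1.16, -1.47 and -0.93, SE 0.04 each, edgeR adjusted p = 2.77e-16, 1.36e-18 and 2.11e-14). Manf, a neurotrophic factor that binds BiP, was 73.2, 77.1, 87.9 and 84.2 CPM in labelled KO and 171, 178, 190.2 and 189 CPM in WT cells with LPS. It was 2.02-fold lower with zymosan, 2.26-fold lower with LPS and 1.63-fold lower in untreated cells, without overlap (edgeR adjusted p = 1.54e-12, 5.6e-14 and 1.97e-09). Manf exons share 166 and 146 bases with transcripts on the opposite strand, 4930524O07Rik and Dcaf1.

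The genotype gap changed the makeup of the set. Hspa5, Hsp90b1 and Calr together held 91.2% of the summed CPM level of the 10 genes in labelled KO and 85.4% in WT cells with zymosan, 91.3% in labelled KO and 84.7% in WT cells with LPS, and 89.1% in labelled KO and 83.0% in WT untreated cells. The ratio of Hspa5 to Hyou1 CPM was 22.2 ± 2.42 in labelled KO and 10.7 ± 0.342 in WT cells with zymosan, and 29.4 ± 3.69 in labelled KO and 12.5 ± 0.693 in WT cells with LPS (mean ± SD, n = 4). In untreated cells it was 10.4 ± 0.542 in labelled KO and 5.15 ± 0.116 in WT. The ranges of this ratio did not overlap between genotypes in any condition. Hspa5 per Dnajb9 was 255 ± 19.5 in labelled KO and 58.8 ± 0.624 in WT cells with zymosan, and 263 ± 18.4 in labelled KO and 56.4 ± 1.93 in WT cells with LPS. These ratios were not tested and are not per length.

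Each stimulus was then set against untreated cells within a genotype, to ask how the chaperones respond. Of the 10, Hspa5 rose the most in each of the 4 comparisons, by 1.75-fold to 2.25-fold. In labelled KO cells 3 of 10 members rose and 5 fell with zymosan, and in WT cells 6 rose and 1 fell. With LPS, 3 rose and 6 fell in labelled KO cells, and 6 rose and 1 fell in WT cells. Most genes respond to these stimuli, so such counts say little about the members: of all genes, 31.6% rose and 35.2% fell with zymosan in labelled KO cells, and 34.3% rose and 35.9% fell in WT cells. With LPS 34.4% rose and 37.4% fell in labelled KO cells, and 35.9% rose and 39.7% fell in WT cells. In either direction 66.8% were called with zymosan in labelled KO, 70.2% with zymosan in WT, 71.8% with LPS in labelled KO and 75.6% with LPS in WT cells. The median log2 response of the members was -0.06 in labelled KO and 0.21 in WT cells with zymosan, and -0.28 in labelled KO and 0.23 in WT cells with LPS. Over all genes it was between -0.042 and -0.014 in these 4 comparisons. The zymosan and LPS comparisons of a genotype share their untreated samples.

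**Figure D3:**
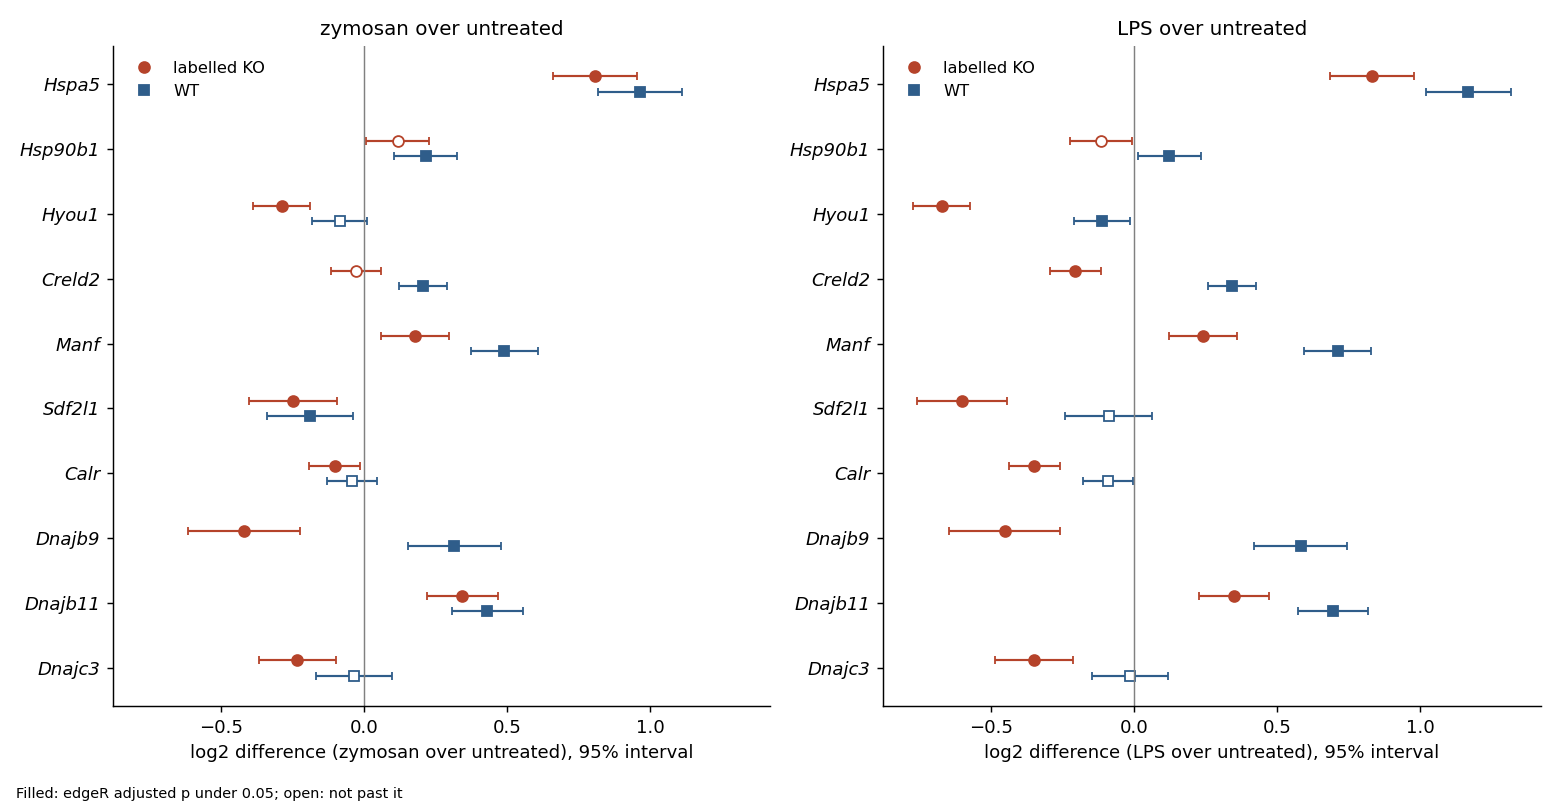
log2 difference, stimulated over untreated, of each gene (rows) for zymosan (left panel) and LPS (right panel) in labelled KO and WT cells; bars are 95% intervals, and filled symbols passed an edgeR adjusted p under 0.05. Dnajb9 lies on opposite sides of 0 in labelled KO and WT cells in both panels, and Hspa5 lies at 0.81 to 1.17 in all 4 comparisons.

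Hspa5 rose with each stimulus in both genotypes, and its stimulated samples did not overlap its untreated ones. The rise with zymosan was 1.75-fold in labelled KO and 1.95-fold in WT cells, and with LPS it was 1.78-fold in labelled KO and 2.25-fold in WT cells (edgeR adjusted p = 2.86e-10, 7.63e-12, 1.07e-10 and 1.09e-13). Dnajb11 and Manf were the other 2 that rose in all 4 comparisons. Dnajb11 rose by log2 0.34 in labelled KO and 0.43 in WT cells with zymosan, and by 0.35 in labelled KO and 0.69 in WT cells with LPS. Manf rose by 0.18 in labelled KO and 0.49 in WT cells with zymosan, and by 0.24 in labelled KO and 0.71 in WT cells with LPS. The call on Manf with zymosan in labelled KO cells (edgeR adjusted p = 0.00841) ended with summed pairs (0.0885).

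Dnajb9 and Creld2 moved in opposite directions in the genotypes. Dnajb9 fell in labelled KO cells, by log2 0.42 ± 0.09 with zymosan and 0.45 ± 0.09 with LPS, and rose in WT cells, by 0.32 ± 0.08 and 0.58 ± 0.08 (edgeR adjusted p = 0.0004, 0.00014, 0.00096 and 2.95e-07). Creld2 fell by 0.20 ± 0.04 in labelled KO cells with LPS and rose by 0.34 ± 0.04 in WT cells (edgeR adjusted p = 0.000148 and 3.75e-08). With zymosan Creld2 was at -0.03 (95% interval -0.12 to 0.06, edgeR adjusted p = 0.591) in labelled KO cells and rose by 0.21 in WT cells.

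Hyou1, Sdf2l1, Calr and Dnajc3 fell in labelled KO cells with both stimuli. The fall with LPS was 1.59-fold for Hyou1, 1.52-fold for Sdf2l1 and 1.27-fold for both Calr and Dnajc3, in every case without overlap between samples (edgeR adjusted p = 3.74e-12, 1.17e-07, 7.77e-08 and 3.74e-05). With zymosan the log2 differences in labelled KO cells were -0.29, -0.25, -0.10 and -0.23. The zymosan calls on Sdf2l1 and Dnajc3 ended with summed pairs (edgeR adjusted p = 0.0637 and 0.0631). The call on Calr (edgeR adjusted p = 0.0398) ended under DESeq2 (0.0573), under 4 other settings and without labelled KO zymosan replicate 1 or 2 or labelled KO untreated replicate 3 or 4 (0.0745 to 0.164).

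In WT cells the log2 differences of the same 4 genes were between -0.19 and -0.01. With zymosan no difference between the responses of the genotypes passed for these 4 over all samples. The edgeR adjusted p of that interaction was 0.138 for Hyou1, 0.9 for Sdf2l1, 0.776 for Calr and 0.341 for Dnajc3. Sdf2l1 was lower with zymosan by log2 0.19 (edgeR adjusted p = 0.0244), with overlapping samples, and the call ended without WT zymosan replicate 1 or 2 or WT untreated replicate 3 or 4 (0.0644 to 0.123). Hyou1 was at -0.11 with LPS (edgeR adjusted p = 0.035), a call that ended under DESeq2 (0.15) and without WT LPS replicate 1, 2 or 3 or WT untreated replicate 3 or 4 (0.0507 to 0.114). Hyou1 with zymosan (-0.08, 95% interval -0.18 to 0.01, edgeR adjusted p = 0.112) passed without WT zymosan replicate 4 (0.0413) or WT untreated replicate 2 (0.0471). The remaining 5 values did not pass: Calr was at -0.04 and Dnajc3 at -0.03 with zymosan, and Sdf2l1 and Calr were at -0.09 and Dnajc3 at -0.01 with LPS. Calr with LPS (edgeR adjusted p = 0.0573) passed without WT untreated replicate 1 (0.0314) or 2 (0.0262), and within replicates 3 and 4 alone Calr (0.00734) and Sdf2l1 (0.0173) passed.

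Hsp90b1 moved little. It was at log2 0.12 with zymosan in labelled KO cells (95% interval 0.0095 to 0.23, edgeR adjusted p = 0.0513), which passed under DESeq2 (0.0262), with replicate number as a block (0.00977), within replicates 1 and 2 (0.00367) and without labelled KO zymosan replicate 1 or labelled KO untreated replicate 3 or 4 (0.0316 to 0.0368). In WT cells it rose by 0.22 ± 0.05 with zymosan (edgeR adjusted p = 0.000783). With LPS it was at -0.12 in labelled KO cells (edgeR adjusted p = 0.0532) and 0.12 in WT cells (edgeR adjusted p = 0.0368). The LPS value in labelled KO cells passed without labelled KO LPS replicate 3 or 4 or labelled KO untreated replicate 1 or 2 (0.0164 to 0.0373). The LPS call in WT cells ended without WT LPS replicate 3 or WT untreated replicate 1, 2 or 4 (0.0627 to 0.132).

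Whether a response differed between genotypes was tested as an interaction, the log2 response of labelled KO cells minus that of WT cells. With LPS all 10 members had a lower response in labelled KO cells and passed, where 5.84% of all genes passed in that direction, 4.61% in the other and 10.4% in either. With zymosan all 10 values were below 0 and 3 passed, Creld2, Manf and Dnajb9, where 0.846% of genes passed in that direction, 0.973% in the other and 1.82% in either. The median over the members was -0.41 with LPS and -0.18 with zymosan, against 0.0034 and -0.0086 over all genes.

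The LPS interaction was -1.03 ± 0.12 for Dnajb9, -0.56 ± 0.07 for Hyou1, -0.54 ± 0.06 for Creld2, -0.51 ± 0.11 for Sdf2l1 and -0.47 ± 0.08 for Manf (edgeR adjusted p = 2.08e-05, 2.16e-05, 5.13e-06, 0.003 and 0.000746). Creld2, Dnajb9 and Hyou1 ranked 6, 8 and 10 by p-value among all 14188 genes. The values were smaller for Dnajb11 (-0.35), Hspa5 and Dnajc3 (-0.34 each), Calr (-0.26) and Hsp90b1 (-0.24), with edgeR adjusted p = 0.00956, 0.0307, 0.0197, 0.0078 and 0.0405. Within replicates 1 and 2 alone all 10 values were below 0 and passed, and within replicates 3 and 4 alone all 10 were below 0 and 9 passed, with Hsp90b1 at 0.0593. Of all genes 20.8% passed in either direction within replicates 1 and 2, and 11.6% within replicates 3 and 4. With summed pairs the values were -1.03 to -0.24 and 0 passed by edgeR, the lowest adjusted p being 0.0775 for Creld2, in a setting where 5 genes passed of all tested. At an unadjusted p under 0.05, 8 of the 10 passed there, as did 11.5% of the 15378 genes tested with summed pairs. DESeq2 on the 24 single samples called all 10, where it called 12.6% of all genes.

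Single libraries decided the weaker LPS calls. The Hspa5 call ended without labelled KO LPS replicate 1 or 2, WT LPS replicate 3 or 4, labelled KO untreated replicate 3 or 4, or WT untreated replicate 1 or 2 (edgeR adjusted p = 0.0639 to 0.074). The Hsp90b1 call ended without any of the same 8 libraries or WT untreated replicate 4 (0.054 to 0.0943), and that of Dnajc3 without labelled KO untreated replicate 4 (0.0502). The eosinophil list summed to 47.6 to 56.7 CPM in labelled KO and 995 to 1067 CPM in WT cells with LPS, and 49.0 to 58.7 CPM in labelled KO and 835 to 1121 CPM in WT untreated cells. Of a list of 8 macrophage genes 6 were called lower in the LPS interaction. It summed to 1624 to 1689 CPM in labelled KO and 2197 to 2359 CPM in WT cells with LPS, and to 1987 to 2247 CPM in labelled KO and 1953 to 2233 CPM in WT untreated cells. All 8 macrophage genes were called lower in labelled KO cells with LPS and 1 in untreated cells. A list of 5 plasmacytoid DC genes, 4 of them tested and 1 called lower in the interaction, summed to 741 to 767 CPM in labelled KO and 966 to 1088 CPM in WT cells with LPS, and to 141 to 171 CPM in labelled KO and 146 to 173 CPM in WT untreated cells. The neutrophil list, with an interaction median of 0.23, summed to 1593 to 1784 CPM in labelled KO and 1272 to 1365 CPM in WT cells with LPS, and to 1085 to 1548 CPM in labelled KO and 1099 to 1727 CPM in WT untreated cells. Interaction medians of the other marker lists ran from -0.97 (stroma, at most 10.7 CPM in all) to 0.78 (mast cell and basophil). The part of these lists in the chaperone interactions was not tested.

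The zymosan interaction of Dnajb9, -0.74 ± 0.12 (edgeR adjusted p = 0.00285), passed when any single library was left out and within each replicate pair, and ended with summed pairs (0.594). With summed pairs 0 members passed the zymosan interaction by edgeR, 3 had an unadjusted p under 0.05 (5.35% of all genes), and DESeq2 on the single samples called 3 (3.03% of all genes). The share of all genes called by edgeR over the single samples rests on 258 genes, and this number was 125 to 350 when a library was left out, with 154 without labelled KO zymosan replicate 1 and 125 without replicate 2. Those of Manf (-0.31, edgeR adjusted p = 0.0463) and Creld2 (-0.23, edgeR adjusted p = 0.0397) each ended when any of 11 of the 16 libraries was left out, at 0.0536 to 0.124 for Manf and 0.0535 to 0.0968 for Creld2. For Manf the other 5 were labelled KO zymosan replicate 3, WT zymosan replicates 1 and 3 and WT untreated replicates 3 and 4. For Creld2 they were labelled KO zymosan replicate 4, WT zymosan replicate 1, labelled KO untreated replicate 4 and WT untreated replicates 3 and 4. Within replicates 3 and 4 alone neither passed (edgeR adjusted p = 0.25 for Manf and 0.29 for Creld2). Hyou1 (-0.20, 95% interval -0.34 to -0.06, edgeR adjusted p = 0.138) and Dnajc3 (-0.20, -0.39 to -0.01, edgeR adjusted p = 0.341) did not pass over all samples, and Hyou1 passed within replicates 3 and 4 (0.048). Hspa5 passed within replicates 1 and 2 (-0.18, edgeR adjusted p = 0.0231).

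The stimuli were also set against each other. In labelled KO cells 5 members were higher with zymosan than with LPS and 0 lower, and in WT cells 0 were higher and 5 lower. Over all samples both counts of 0, by edgeR, were also 0 at an unadjusted p under 0.05 and by DESeq2. They did not hold within single replicate pairs. Manf was called lower in labelled KO cells within replicates 3 and 4 alone (log2 -0.14, edgeR adjusted p = 0.0261). Hsp90b1 was called higher in WT cells within replicates 1 and 2 alone (0.12, edgeR adjusted p = 0.0149). Of all genes, 22.7% were higher and 20.0% lower in labelled KO cells, and 24.5% were higher and 21.9% lower in WT cells, with 42.7% in labelled KO and 46.4% in WT cells called in either direction. In labelled KO cells the members called were Hyou1 (log2 0.39), Sdf2l1 (0.35), Calr (0.25), Hsp90b1 (0.23) and Creld2 (0.18), all without overlap (edgeR adjusted p = 6.33e-07, 0.00059, 4.75e-05, 0.000835 and 0.00181). With summed pairs, where 23.1% of all genes were called, 3 of these calls held, and those on Hsp90b1 (edgeR adjusted p = 0.0655) and Creld2 (0.0583) ended.

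In WT cells the members called were Dnajb9 (log2 -0.27), Dnajb11 (-0.26), Manf (-0.22), Hspa5 (-0.20) and Creld2 (-0.14), with edgeR adjusted p = 0.00715, 0.000697, 0.00238, 0.0199 and 0.00818. Creld2 samples overlapped, at 64.1 to 72.3 CPM with zymosan and 71.8 to 76.6 CPM with LPS. With summed pairs, where 27.7% of all genes were called, the Dnajb11 call held and the other 4 ended. The Hspa5 call also ended without WT zymosan replicate 2 or WT LPS replicate 3 or 4 (edgeR adjusted p = 0.0531 to 0.0686).

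The other genes of ER protein folding were read from lists, beside the 3 genotype comparisons. Genes of the translocon and signal peptidase, which carry chains into the ER, were lower in labelled KO cells for 16 of 19 with zymosan, 17 of 19 with LPS and 15 of 19 in untreated cells, and higher for 1, 0 and 0. The signal peptidase subunit Spcs2 was at log2 -1.03, -1.08 and -0.81, and Sec61a1, the channel subunit, at -0.83 and -1.08 with zymosan and LPS. In ER glycan processing 10, 12 and 12 of 14 were lower and 0, 1 and 0 higher, led by the oligosaccharyltransferase subunits Ostc (-0.94, -1.04 and -0.75) and Stt3a (-0.86, -0.93 and -0.73). Of the genes of ER-associated degradation, which removes misfolded proteins, 12, 13 and 10 of 18 were lower and 0 higher, led by Selenos (-1.11, -1.40 and -0.70) and the ubiquitin ligase Syvn1 (-0.68, -0.92 and -0.52). Counts and values in these lists are given for zymosan, LPS and untreated cells. Every count of 0 higher, by edgeR, in these 3 lists and among the disulfide isomerases described next was also 0 at an unadjusted p under 0.05 and by DESeq2.

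Of the protein disulfide isomerases and oxidases, which form disulfide bonds, 10, 12 and 9 of 18 were lower and 2, 3 and 0 higher, with Pdia5 at -5.16 ± 0.25, -4.69 ± 0.22 and -3.92 ± 0.19 and Txndc5 at -1.12, -1.40 and -1.08. These Pdia5 falls exceeded those of every chaperone described above. Of 20 other ER chaperones and folding factors tested, 11, 10 and 6 were lower and 3 were higher each time, with list medians of -0.18, -0.14 and -0.10, nearer to 0 than the medians of the 10 members. Among ER stress sensors and their transcription factors 6, 7 and 5 of 14 were lower and 2, 2 and 1 higher, with medians of -0.08, -0.13 and 0.0023 and with Creb3l2, a membrane-bound transcription factor related to ATF6, at -4.05, -3.64 and -3.18. Xbp1 totals were not called in any of the 3 comparisons.

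The PERK-ATF4-CHOP genes, the targets of another arm of the response, went the other way: 8, 9 and 8 of 17 were higher in labelled KO cells and 0, 3 and 0 lower. By edgeR at an unadjusted p under 0.05 and by DESeq2 the count lower was also 0 with zymosan and in untreated cells. Asns, asparagine synthetase, was at 1.23, 1.47 and 1.14. Of the 21 cytosolic and mitochondrial chaperones tested, 4, 6 and 0 were lower and 6, 1 and 0 higher, with medians between -0.03 and 0.02. In untreated cells 2 were higher at an unadjusted p under 0.05 by edgeR and 2 by DESeq2. Counts of a list are descriptions here and were given no test of their own.

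**Figure D4:**
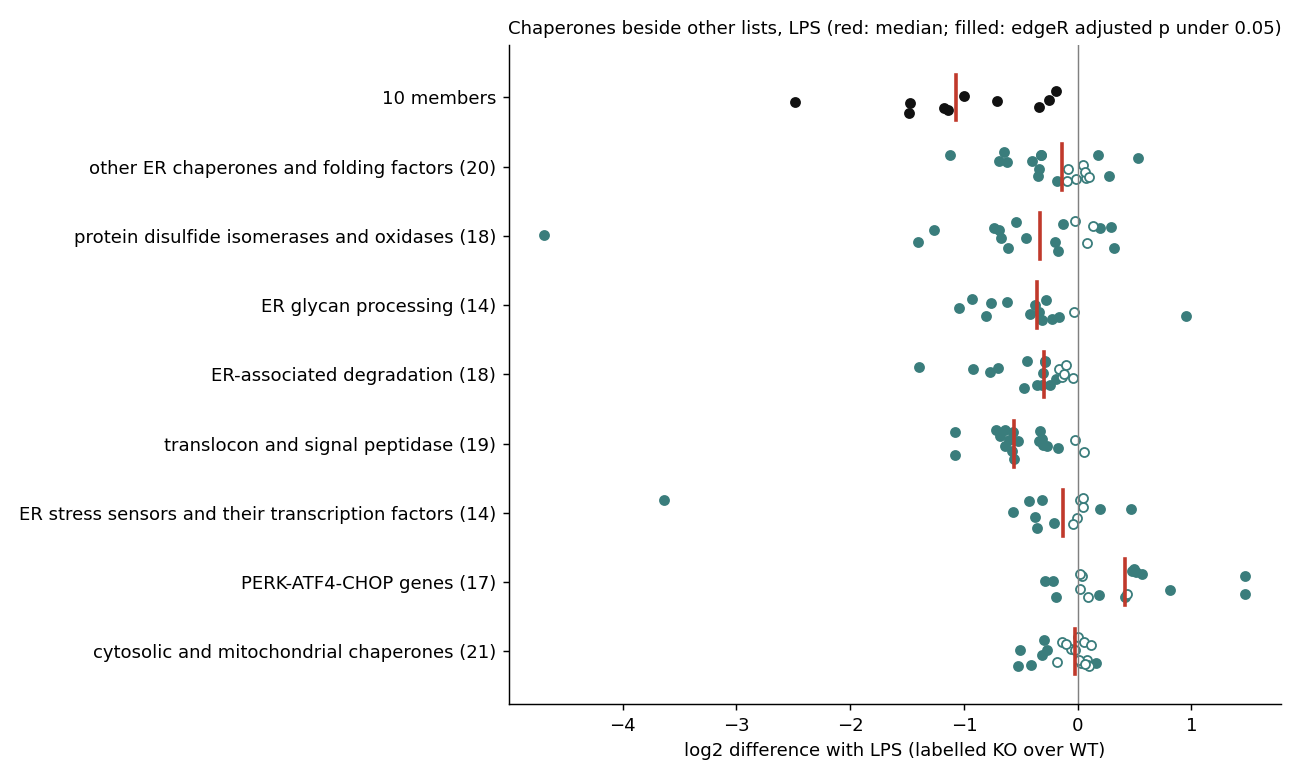
log2 difference with LPS, labelled KO over WT, of the 10 members and of the tested genes of 8 other lists (rows; numbers tested in brackets); points are genes, filled where an edgeR adjusted p was under 0.05, and red bars are list medians. The members' median of -1.07 lies left of every other list median, the PERK-ATF4-CHOP genes have a median of 0.42, and the point at -4.69 is Pdia5.

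The genes whose pattern over the 6 group means was most like each member's were sought, among the 9019 genes averaging 5 CPM or more, by the root mean square difference of centred log2 means. This difference is not scaled to a gene's range, 5.59-fold for Dnajb9 and 1.22-fold for Hsp90b1. Its size is therefore not comparable between members of unlike range. The 5 nearest included a gene of the ER lists for Hyou1, Creld2, Manf, Sdf2l1, Dnajc3, Calr and Dnajb9, and none of those lists for Hspa5, Hsp90b1 and Dnajb11. Hyou1 was nearest Txndc11 (0.109), Creld2 and Manf nearest Selenos (0.119 and 0.125), and Dnajc3 nearest Stt3a (0.0381) and Ostc (0.0426). Hspa5 was nearest Rbbp8 (0.0221) and Tiparp (0.0277), Hsp90b1 nearest Ptpra (0.0258), Calr nearest Sil1 (0.0434), a nucleotide exchange factor of BiP, and Dnajb11 nearest Lrrc59 (0.0606). For Dnajb9, the member of widest range, the nearest were Sec24d (0.218) and Ear2 (0.246). Ear2, like Ear6 (0.369), belongs to the eosinophil list, and Txndc5 (0.455), also among its 5 nearest, to the disulfide isomerase list. Within the set, by this unscaled difference, Sdf2l1 and Dnajc3 were the closest pair (0.0934) and Hspa5 and Dnajb9 the farthest apart (1.08).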

How the data were processed

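RNA of 24 samples of bone-marrow-derived mouse dendritic cells was sequenced, 4 samples in each of 6 groups of labelled genotype and stimulus. The deposited table gives whole-number counts per Ensembl gene, used unchanged, although the plan had assumed expected counts that need rounding. The submitters' processing notes name Bowtie2, RSEM 1.2.31, DESeq2 and build mm10, and their roles, the annotation and strandedness are not given in the sources used here. GENCODE M21 (GRCm38) named 37570 of the 38887 genes (96.6%) and gave positions and exons.

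Here, filterByExpr kept 14188 genes, TMM factors were 0.880 to 1.19, and a single quasi-likelihood model (edgeR 4.0.16, R 4.3.3) covered the 24 samples, with 1 mean for each of the 6 groups. The 11 contrasts were adjusted by Benjamini-Hochberg over all genes, with a threshold of 0.05. Levels are CPM as mean ± SD, and differences are log2 ± SE with 95% intervals. The common biological coefficient of variation was 0.0686, and counting error alone was 6.74% at the lowest member count (220, Dnajb9), of like size, and at most 3.39% for the other 9. The procedure was tested on simulated data.

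Alternatives were DESeq2 1.42.0, its size factors, no filter, a fit of only those groups a contrast uses, a block for replicate number, summed replicate pairs, each pair alone and each library left out. Same-numbered samples deviated together, with every correlation over 0.1, for zymosan against untreated cells (0.125 to 0.205 in labelled KO and 0.151 to 0.247 in WT). In these comparisons 2 of 4 samples in labelled KO and 3 of 4 in WT were nearest their own number. The numbers were taken as paired there in reading the block, although the labels state no pairing and the main model has no pairing term. Correlation by number was not separated from the resemblance of replicates 1 and 2, and of 3 and 4.

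The members and lists were chosen with earlier results of these data known. Genes named are the 10 members, Ern1, Xbp1, up to 2 called genes per list with the largest rise and 2 with the largest fall, leading markers and the 5 genes most like each member. Promoters were RefSeq windows on GRCm38.p6 from 250 bases before to 50 after the start.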

Additional observations from a re-analysis of the deposited data

Results flagged for a closer look

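Of 60 groups of 4 samples, 10 members in 6 groups, 3 held a sample far from the other 3 by Dixon's test, and chance flags about 1 in 20 groups. Hsp90b1 was 1344 CPM in WT LPS replicate 3, against 1234 to 1247 CPM in the other 3 replicates. Manf was 73.2 CPM in labelled KO zymosan replicate 2 (others 78.2 to 78.9 CPM) and 72.2 CPM in labelled KO untreated replicate 1 (others 66.6 to 67.3 CPM).

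The response to LPS differed between labelled KO and WT cells for all 10 members by the interaction test. The log2 difference of responses was -0.34 for Hspa5, -0.24 for Hsp90b1, -0.56 for Hyou1, -0.54 for Creld2, -0.47 for Manf, -0.51 for Sdf2l1, -0.26 for Calr, -1.03 for Dnajb9, -0.35 for Dnajb11 and -0.34 for Dnajc3. The response to zymosan differed for Creld2 (-0.23), Manf (-0.31) and Dnajb9 (-0.74). With summed replicate pairs 0 of these 13 passed by edgeR. At an unadjusted p under 0.05, 8 of the 10 members passed there for LPS (11.5% of all genes) and 3 for zymosan (5.35%). DESeq2 on single samples called 10 for LPS (12.6% of all genes) and 3 for zymosan (3.03%).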

How the results depend on the processing

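Over all alternatives, 1749 of 1920 log2 values of members kept their direction and their side of the threshold, 115 lost a call, 30 gained one and 26 turned direction, each of the 26 near 0 and not called over all samples. Summed replicate pairs had 30 of the lost calls. With them the members called by edgeR numbered 4 of 10 for zymosan over untreated in labelled KO cells (8 with single samples), 3 and 1 for zymosan over LPS in labelled KO and in WT cells (5 each), 0 for the zymosan interaction (3) and 0 for the LPS interaction (10). Of all genes, 52.8%, 23.1%, 27.7%, 0% and 0.0325% were called with summed pairs in these comparisons. With single samples the shares were 66.8%, 42.7%, 46.4%, 1.82% and 10.4%. The unadjusted p with summed pairs was under 0.05 for 3 and 8 members in the zymosan and LPS interactions (5.35% and 11.5% of all genes), and DESeq2 on single samples called 3 and 10 (3.03% and 12.6%). The zymosan interaction had 1 member with no filter (0.789% of all genes) and 1 with only the groups compared (1.10%). When a library was left out it had 1 to 3 members, where 125 to 350 of all genes were called.

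Counts over all genes by edgeR moved with the samples used. For labelled KO over WT they were 1411 in untreated cells (418 with summed pairs, 3251 within replicates 1 and 2), 3134 with zymosan (964 and 4727) and 4805 with LPS (1987 with summed pairs). For zymosan over LPS they were 6059 in labelled KO and 6587 in WT cells (3551 and 4259 with summed pairs). For the zymosan interaction they were 258 (430 by DESeq2, 154 with only the groups compared, 125 to 350 with 1 library left out, 1206 within replicates 1 and 2, 0 with summed pairs, where 823 had an unadjusted p under 0.05) and for the LPS interaction 1482 (2975 within replicates 1 and 2, 5 with summed pairs).

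Values that turned direction were these. Within replicates 1 and 2, Dnajc3 with zymosan (0.0051), Sdf2l1 with LPS (0.014) and Dnajc3 with LPS (0.025) in WT cells did so, as did Hspa5 (0.011), Manf (0.012) and Dnajb9 (-0.11) for zymosan over LPS in labelled KO and Hyou1 (-0.042) in WT cells. Within replicates 3 and 4, Dnajb11 for zymosan over LPS in labelled KO cells (0.057) and Sdf2l1 in the zymosan interaction (0.010) did. Dnajc3 with LPS in WT cells was 0.023 by DESeq2, 0.023 with its size factors and 0.00086 with only the groups compared. With 1 library left out it ranged from -0.048 to 0.015. For zymosan over LPS the ranges were -0.071 to 0.027 for Hspa5, -0.042 to 0.11 for Dnajb9 and -0.043 to 0.025 for Dnajb11 in labelled KO, and -0.0042 to 0.068 for Hyou1 and -0.040 to 0.0076 for Dnajc3 in WT cells. The cause was not tested.

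With replicate number as a block, no member lost a call. For zymosan against untreated labelled KO cells, taken as paired with 2 of 4 samples nearest their own number, Hsp90b1 gained one. There 9 of 10 were called, against 8 without the block, and of all genes 68.7% with it and 66.8% without it. In the comparisons not taken as paired, correlations were -0.041 to 0.13, with 1 to 2 of 4 samples nearest their own number. There the block gave 10 members with LPS in labelled KO (9 without it), 8 with LPS in WT (7) and 6 for zymosan over LPS in labelled KO cells (5). Of all genes it called 73.6%, 76.8% and 46.1% in these comparisons, against 71.8%, 75.6% and 42.7% without it. It moved the all-gene counts to 506 for the zymosan and 2396 for the LPS interaction.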

Other observations

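The cytosolic counterparts of BiP, Hspa1a and Hspa1b, are near-identical copies, so the split of counts between them is uncertain. Hspa1a averaged 134 CPM in labelled KO and 192 CPM in WT cells with LPS, 45.0 CPM in labelled KO and 52.8 CPM in WT cells with zymosan, and 5.69 CPM in labelled KO and 5.55 CPM in WT untreated cells. Against untreated cells it rose 23.6-fold in labelled KO and 34.5-fold in WT cells with LPS, and 7.92-fold in labelled KO and 9.52-fold in WT cells with zymosan, where Hspa5 rose 1.75-fold to 2.25-fold. The LPS interaction was -0.55 for Hspa1a and -0.65 for Hspa1b (edgeR adjusted p = 0.0441 and 0.0462). Hspa1a and Hspa1b belong to a list chosen with earlier results known, and they were picked here after their values were seen.

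The summed CPM level of the 10 chaperones was 4280 in labelled KO and 4845 in WT cells with zymosan, 3940 in labelled KO and 5065 in WT cells with LPS, and 3521 in labelled KO and 3742 in WT untreated cells. Without Hspa5, Hsp90b1 and Calr it was 374 in labelled KO and 708 in WT cells with zymosan, 344 in labelled KO and 773 in WT cells with LPS, and 383 in labelled KO and 638 in WT untreated cells. These sums were not tested.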
